A study of Mus musculus with 2 samples.

Results

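The interferon response genes described here are a list of 33 genes that interferon induces or that carry its signal, matched by symbol in the gene annotation of the deposited matrices. Of these, 32 were listed among 32285 genes; Mx1 was not analysed here. They were measured in single cells of the whole mouse pituitary by droplet-based RNA sequencing, in which each RNA molecule counted once as a unique molecular identifier (UMI). The young library came from male C57BL/6 mice of 2 months and the old library from male C57BL/6 mice of 20 months, in both cases from 10 pooled glands. The labels name no genetic change or treatment in either group. With 1 library of pooled animals per age there was no replicate and no test, so every ratio below compares 2 libraries, and its interval covers counting error only.

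Interferons are secreted proteins that cells release after they sense foreign or misplaced nucleic acids. Type I interferons such as interferon beta (Ifnb1) bind the receptor made of Ifnar1 and Ifnar2 on the same or neighbouring cells, and the signal reaches a complex of factors with STAT2 and IRF9, which binds the interferon-stimulated response element (ISRE) in promoters. Interferon gamma, from T and NK cells, acts mainly through gamma-activated sites (GAS) and induces IRF1, guanylate-binding proteins and immunity-related GTPases. The pituitary joins hormone-secreting endocrine cells with SOX2-positive stem cells, a dense capillary bed and resident macrophages, so the response can be read in each of these compartments.

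Many members share a sequence in their promoters, shown here because it is the letters that the interferon-activated factors are known to bind. RefSeq promoter windows (build GRCm38.p6, 250 bases before to 50 after the start of transcription) were found for 25 of the 33 members. The core of the ISRE was searched as GAAANNGAAA and the core of the GAS as TTCNNNGAA, on both strands. The ISRE core lay in 14 of the 25 members (56%), against 3.99% of 27025 genes with a window (3.44% of 32851 windows), and the GAS core in 8 (32%) against 9.55% of genes (8.30% of windows). The members with an ISRE core were Bst2, Cxcl10, Gbp2, Ifih1, Ifit1, Ifit3, Ifitm2, Ifitm3, Igtp, Irgm1, Isg15, Oas1a, Rsad2 and Stat2. Bst2, Ifitm3, Igtp and Oas1a held both cores, whose letters can overlap. A match describes letters only and is not a measured binding site. The 19 ISRE matches that lay wholly before a start had a median distance of 73 bases from it. The stretches below hold the ISRE core of 5 antiviral genes that were lower in old macrophages, and of Stat2, a member highest in an endocrine class of both libraries. Each is written in the direction of the gene, with the ISRE core in capitals. The core reads TTTCNNTTTC where it lies on the opposite strand.
Isg15: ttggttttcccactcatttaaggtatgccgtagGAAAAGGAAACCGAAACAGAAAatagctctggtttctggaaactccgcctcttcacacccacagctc
Ifit1: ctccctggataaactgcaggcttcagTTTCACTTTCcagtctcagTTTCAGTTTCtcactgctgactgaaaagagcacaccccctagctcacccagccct
Ifit3: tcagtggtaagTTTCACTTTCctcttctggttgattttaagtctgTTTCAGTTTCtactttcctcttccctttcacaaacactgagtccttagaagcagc
Rsad2: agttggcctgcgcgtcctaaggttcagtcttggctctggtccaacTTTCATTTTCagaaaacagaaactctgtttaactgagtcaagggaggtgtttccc
Cxcl10: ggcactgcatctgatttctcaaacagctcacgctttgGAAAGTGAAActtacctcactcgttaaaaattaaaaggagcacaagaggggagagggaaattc
Stat2: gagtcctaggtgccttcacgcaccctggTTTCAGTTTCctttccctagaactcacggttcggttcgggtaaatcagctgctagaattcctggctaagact
The stretch of Isg15 is chr4:156200830-156200929, minus strand, that of Ifit1 chr19:34640759-34640858, plus strand, and that of Ifit3 chr19:34583362-34583461, plus strand. Rsad2 is shown at chr12:26456518-26456617, minus strand, Cxcl10 at chr5:92349040-92349139, minus strand and Stat2 at chr10:128270248-128270347, plus strand. Isg15 held 3 overlapping cores, Ifit1 and Ifit3 held 2 each, and Rsad2, Cxcl10 and Stat2 held 1 each.

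After filters, 8531 young and 9017 old barcodes were kept, but 5537 of the old and none of the young ones formed a cluster with the profile of free RNA and were set aside. The rest, 8531 young and 3480 old cells with medians of 6304 and 5852 UMIs, were sorted into classes by marker genes, without using interferon genes, and each class is named by the type it resembles. Macrophage-like cells numbered 750 young and 415 old, endothelial cell-like cells 87 and 82, stem cell-like cells 975 and 279, and somatotroph-like cells 3971 and 1120. In these 4 classes all macrophage, endothelial and stem cell markers, and 4 of 5 somatotroph markers, were over 2-fold above the other classes in both libraries. The libraries shared 15 cell barcodes outside free RNA. Levels are in CPM, the UMIs of a gene divided by the UMIs of its class and library outside hormone and mitochondrial genes and scaled to the usual CPM unit. A ratio is old over young CPM, written old/young where it stands in parentheses, followed by its 95% interval. Free RNA was read, in each library, from barcodes with 100 UMIs or fewer, since a level at or below it may come in part from free RNA. In summed levels, fewer expressing cells and less RNA per cell cannot be told apart.

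The antiviral part of the list was highest, as a sum, in young macrophage-like cells and low in endocrine and B cell-like cells. To follow it in 1 number, the UMIs of 15 members that type I interferon induces strongly from a low level were summed (Isg15, Ifit1, Ifit2, Ifit3, Irf7, Oasl1, Oasl2, Oas1a, Rtp4, Xaf1, Usp18, Zbp1, Rsad2, Cxcl10 and Ifih1; the antiviral sum). In the young library the antiviral sum was highest in macrophage-like cells at 2258 CPM (95% Poisson interval 2209 to 2308). Endothelial cell-like cells followed at 1332 CPM (1222 to 1448) and fibroblast-like cells at 1319.9 CPM (1139 to 1521), which overlapped. In fibroblast-like cells 1 young cell held 105 of 191 antiviral UMIs, and without it the level was 642 CPM, against 1060.3 CPM in endothelial cell-like cells without their top cell. Cxcl10 was at 1155 CPM in young macrophage-like cells, but held only 45 of 543 antiviral UMIs in young endothelial cell-like cells. With all cells included and Cxcl10 left out, young endothelial cell-like cells lay above young macrophage-like cells. T or NK cell-like cells held 779 CPM, monocyte-like cells 736 CPM and stem cell-like cells 541 CPM. In the old library the highest values were close to each other, with monocyte-like cells at 878 CPM (812 to 947), macrophage-like cells at 842 CPM (804 to 882) and endothelial cell-like cells at 740.0 CPM (675 to 809.8). The interval of macrophage-like cells overlapped both others, while those of monocyte- and endothelial cell-like cells nearly touched. In the monocyte-like class 1 cell held 229 of 669 antiviral UMIs. Without the top cell of each class the old levels were 782 CPM in macrophage-like, 692 in endothelial cell-like and 589 in monocyte-like cells. Free RNA held 309 and 315 CPM, and the somatotroph-like (174 and 192), lactotroph-like (131 and 139) and corticotroph-like cells (91.0 and 106) lay below it in both libraries.

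Single members divided the compartments further. Of the 32 listed members, 15 were highest in an immune class of the young library, 8 in endothelial cell-like, 1 in stem cell-like and 2 in endocrine cells, with 6 in other classes such as fibroblast-like cells. In the old library the counts were 17, 5, 2, 2 and 6. The share of all genes highest in each compartment was not computed, and there were more immune than vascular classes. The counts therefore do not set the members apart from other genes. Some rested on small differences, as for Usp18 in the old library, at 12.7 CPM in gonadotroph-like and 11.9 CPM in macrophage-like cells. Cxcl10, Ifnb1, Oasl1, Ifit2 and the membrane tether Bst2 were highest in macrophage-like cells of both libraries. Ifitm3, which blocks virus entry at endosomal membranes, was highest in monocyte-like cells (2296 and 1876 CPM), with endothelial (2131 and 1346) and stem cell-like cells (1990.1 and 1372) next. The interferon gamma type GTPases Igtp and Irgm1 were highest in endothelial cell-like cells of both libraries. Ifi27, a mitochondrial protein of wide expression, was highest in pituicyte-like cells (624 and 598 CPM), the glia of the posterior lobe. Rsad2 and Isg20 were highest in erythroid cell-like cells, Isg20 at 345 and 401 CPM.

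**Figure D1:**
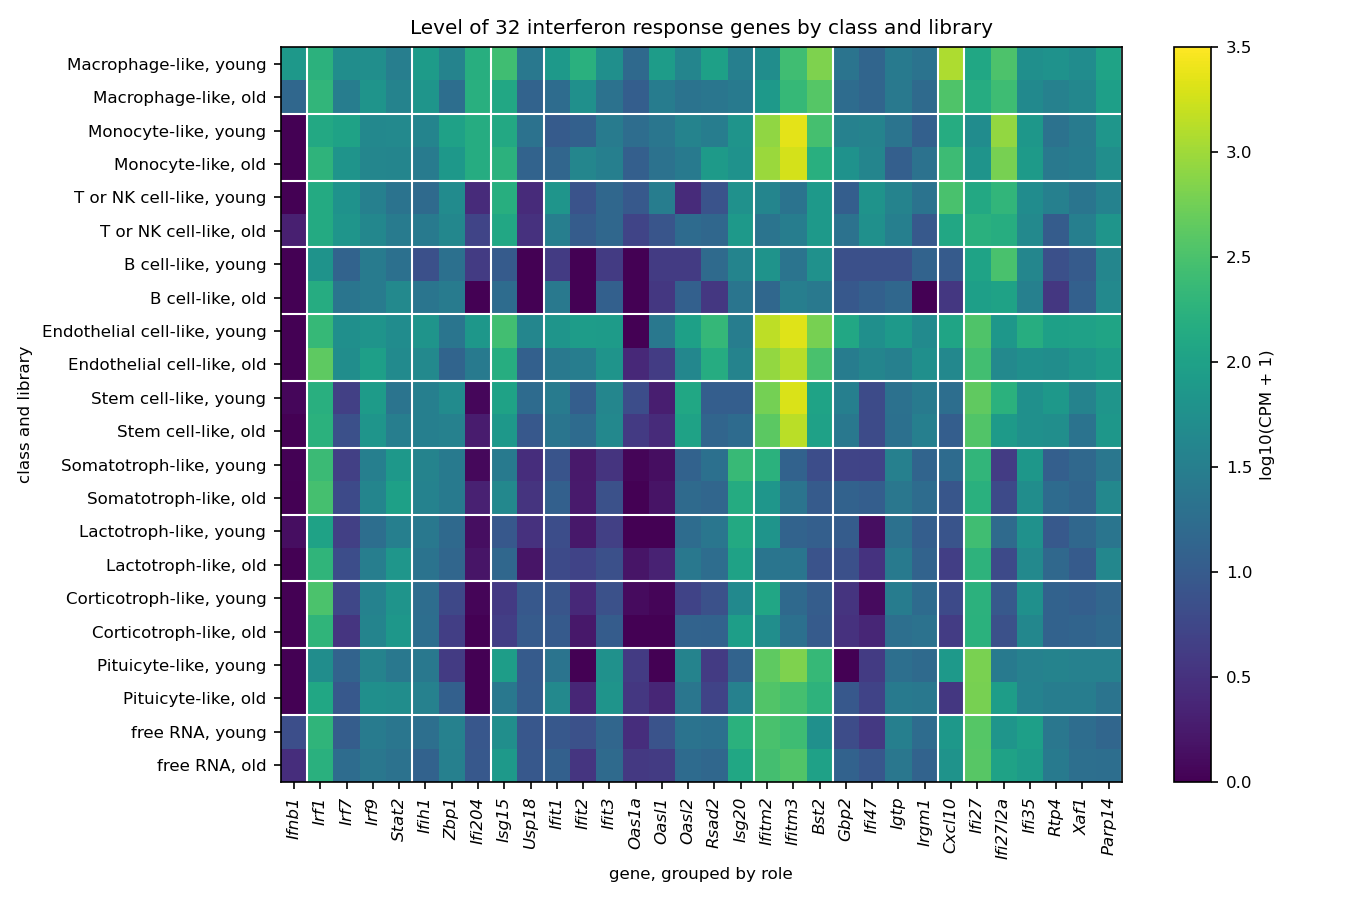
Level of the 32 listed members (columns, grouped by role) in 10 classes of each library and in free RNA (rows), as log10 of CPM plus 1. Cxcl10 was brightest in young macrophage-like cells at 1155 CPM, and Ifitm3 in monocyte-, endothelial and stem cell-like cells, while rows of endocrine classes are dark for most antiviral members.

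In macrophage-like cells the antiviral part of the list was lower in the old library. The antiviral sum was 2258 CPM in young and 842 CPM in old cells, a ratio of 0.373 (0.354 to 0.392), and all 15 antiviral members had a ratio below 1. All 32 members reached 20 UMIs over both libraries; 26 were lower and 6 higher in old. At least 2-fold lower were 9 members (Isg15, Ifit1, Ifit2, Ifit3, Oasl1, Zbp1, Rsad2, Cxcl10 and Ifnb1), where 1.11% of all genes measured in these cells were, and none was at least 2-fold higher, where 7.48% of genes were. The median log2 ratio of the members was -0.43 and that of all genes 0.23.

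The ligand and the chemokine showed this most plainly. Ifnb1 had 259 UMIs in young and 30 in old macrophage-like cells, or 73.0 and 13.8 CPM, a ratio of 0.189 (0.125 to 0.276). Cxcl10, a chemokine that attracts activated T cells, had 4097 and 745 UMIs, or 1155 and 342 CPM, a ratio of 0.296 (0.274 to 0.320). Cxcl10 alone made up about as many UMIs of the young antiviral sum as the other 14 members together. Without it the sum was 1103 and 500.2 CPM, a ratio of 0.453 (0.424 to 0.485), so the other members were lower too.

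Among the effectors, the RNA-binding IFIT proteins and the membrane enzyme RSAD2 (viperin) had small ratios. Ifit1 was at 77.3 and 16.1 CPM in young and old macrophage-like cells, a ratio of 0.208 (0.142 to 0.296), and Rsad2 at 97.0 and 23.0 CPM, a ratio of 0.237 (0.172 to 0.319). Ifit2 and Ifit3 had ratios of 0.336 (0.274 to 0.409) and 0.365 (0.256 to 0.510), and Oasl1, an OAS-like protein, 0.338 (0.253 to 0.444). Isg15, the ubiquitin-like protein that is attached to other proteins, was at 268 and 126 CPM (old/young 0.472, 0.411 to 0.540), and Usp18, the protease that removes it, at 24.0 and 11.9 CPM (old/young 0.498, 0.308 to 0.781). Usp18 was just short of 2-fold on the scale of the counts, which adds 0.5 UMIs to each gene. Bst2, with the second-highest level of the list in young macrophage-like cells, was at 655 and 376 CPM (old/young 0.574, 0.529 to 0.621). Lower by less than 2-fold were also Rtp4 (old/young 0.563, 0.426 to 0.739), Oasl2 (old/young 0.535, 0.371 to 0.757), Ifitm3 (old/young 0.826, 0.738 to 0.923) and Ifi27l2a (old/young 0.769, 0.694 to 0.850). Members with intervals that held 1 were Oas1a, Xaf1, Ifi35, Isg20, Parp14, Gbp2, Ifi204, Ifi47, Igtp, Irgm1, Irf9 and Stat2, so the gamma-type GTPases and Ifi204, a DNA sensor, had no ratio beyond counting error. Ifitm2 (old/young 1.53, 1.23 to 1.90) and Ifi27 (old/young 1.18, 1.01 to 1.36) were higher in old, at levels below free RNA.

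Most genes upstream of the response had ratios closer to 1. The factors Irf9 (old/young 1.20, 0.955 to 1.50), Stat2 (old/young 1.18, 0.868 to 1.59) and Irf1 (old/young 1.14, 1.00 to 1.29) had ratios at or above 1, the first 2 with intervals that held 1, whereas Irf7, the factor that amplifies type I interferon genes, was at 51.6 and 29.9 CPM (old/young 0.578, 0.429 to 0.772). The receptor genes Ifnar1 (old/young 1.12, 0.889 to 1.40) and Ifnar2 (old/young 0.999, 0.894 to 1.12) did not differ beyond counting error. The cytosolic RNA sensor Ifih1 (old/young 0.798, 0.649 to 0.977) was only a little lower, and Zbp1, a sensor of Z-form nucleic acids, was at 36.1 and 17.5 CPM (old/young 0.484, 0.327 to 0.699).

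**Figure D2:**
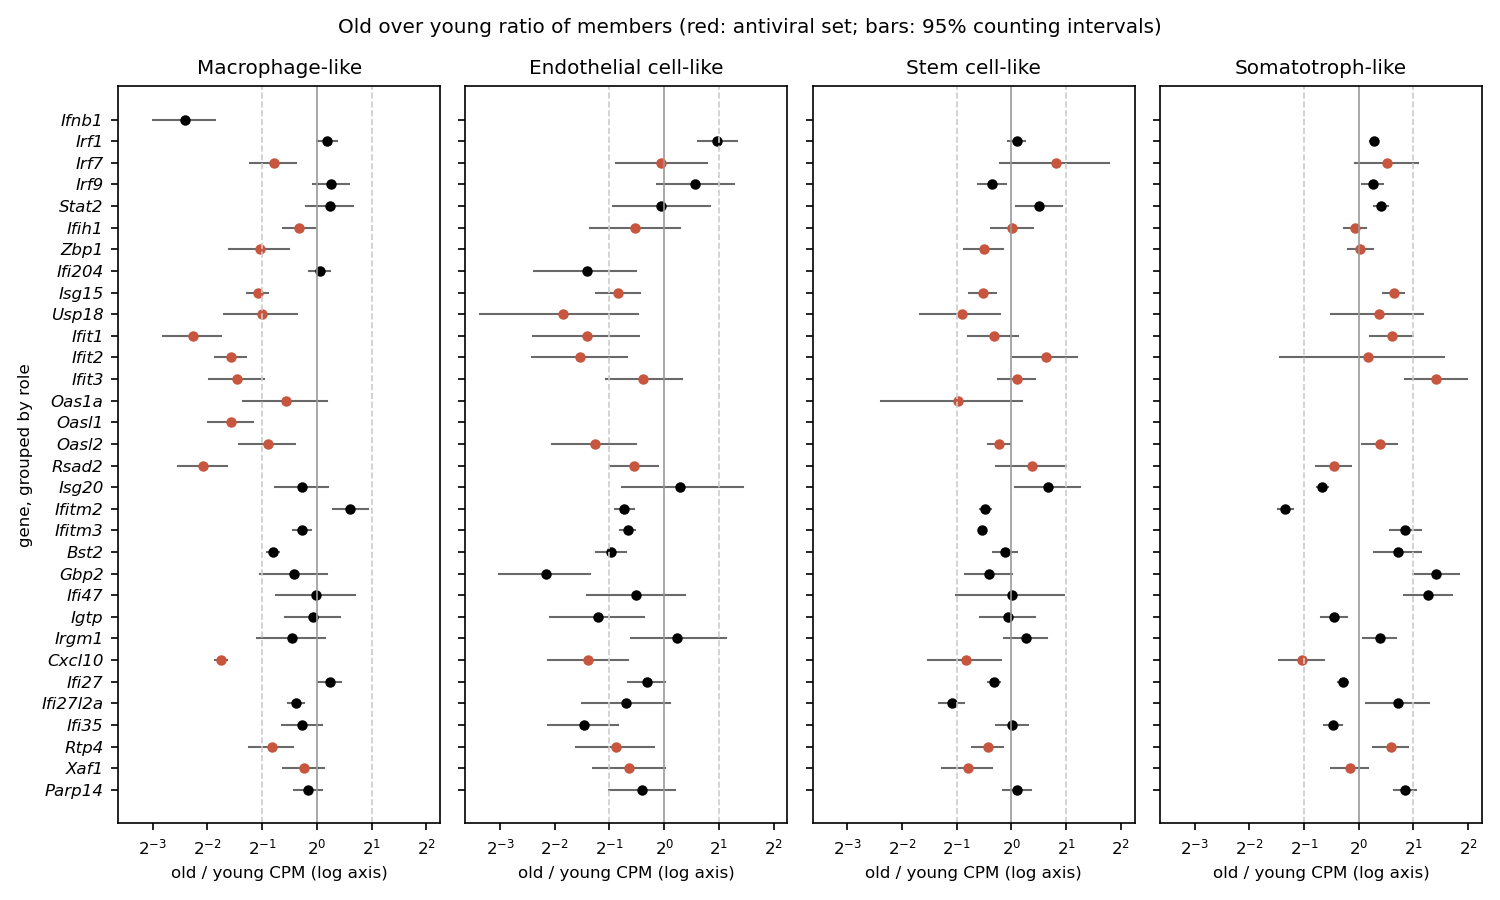
Ratio of old over young CPM for each member with at least 20 UMIs in macrophage-, endothelial, stem and somatotroph-like cells, on a log axis. Red points are antiviral members, black points the others, bars are 95% counting intervals and dashed lines mark 2-fold. All red points lie left of 1 in macrophage-like and endothelial cell-like cells, with the macrophage antiviral sum at 0.373.

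Of the 3 clusters of macrophage-like cells, 2 had ratios well below 1 and 1 did not. In cluster 14, led by Cx3cr1, C1qc and Siglech, the antiviral sum was 3358 CPM in 214 young and 1021 CPM in 123 old cells, a ratio of 0.304 (0.282 to 0.328). In cluster 13, led by Ms4a7, Rgs1 and Ccl3, it was 1840.4 and 801 CPM in 436 and 205 cells, a ratio of 0.435 (0.404 to 0.468). Cluster 5, of shallower cells near the profile of free RNA, held 388 and 385 CPM, a ratio of 0.993 (0.725 to 1.36), close to the free RNA level. Genes of general macrophage activation, chosen after their values were seen, were lower in old as well. Ccl4 was at 7471 and 3782 CPM (old/young 0.506, 0.494 to 0.519), Ccl3 at 2481 and 1449.5 CPM (old/young 0.584, 0.561 to 0.609) and Tnf at 287 and 152 CPM (old/young 0.531, 0.467 to 0.601) over all macrophage-like cells. The early stress genes Atf3 and Fos, which tissue dissociation also induces, had ratios of 0.642 (0.624 to 0.660) and 0.892 (0.876 to 0.909). The part of this activation in the antiviral ratios was not tested.

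**Figure D3:**
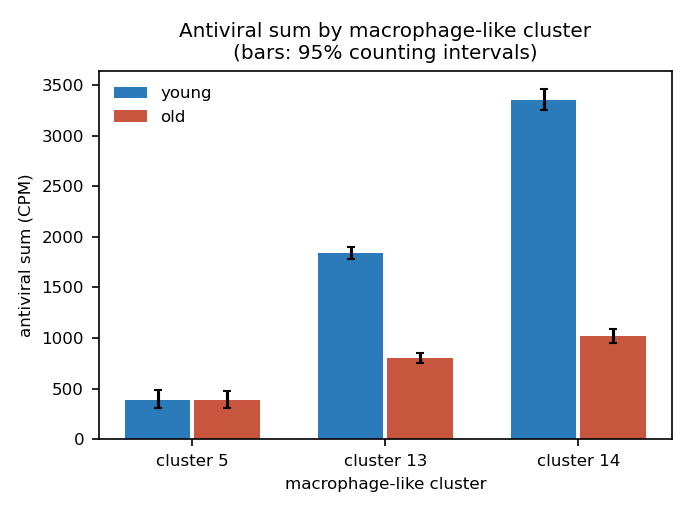
Antiviral sum in CPM (bars from 0, with 95% counting intervals) in the 3 macrophage-like clusters of the young and old library. Young bars stand over old ones in clusters 13 and 14, and the bars are level in cluster 5 at 388 and 385 CPM.

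About 50% of the antiviral UMIs lay in few cells, although many other macrophage-like cells held some. These few cells were picked by the same UMIs, which by itself raises their share. The 5% of macrophage-like cells with the most antiviral UMIs held 45.6% of those UMIs among young and 47.5% among old cells, while those cells held 7.73% and 8.27% of all UMIs of the class. A share of 50% of the antiviral UMIs lay in 45 young cells (6%) and in 24 old cells (5.78%), so the concentration was alike although the level was not. Cxcl10 was detected in 280 young and 95 old macrophage-like cells, and 50% of its UMIs lay in 35 and 10 cells. Thinned to 2000 UMIs per cell, 30.8% of young (exact 95% interval 27.5 to 34.2%) and 16.4% of old macrophage-like cells (12.95 to 20.3%) held Cxcl10, against 1.11% and 1.25% of somatotroph-like cells of 9571 and 6770.5 median UMIs, a class below free RNA for this gene. The macrophage-like cells had medians of 4931.5 and 5304 UMIs before thinning. Bst2 was spread more evenly, with 58.1% and 41.7% of thinned macrophage-like cells positive and 22.3% and 28.7% of its UMIs in the top 5%.

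**Figure D4:**
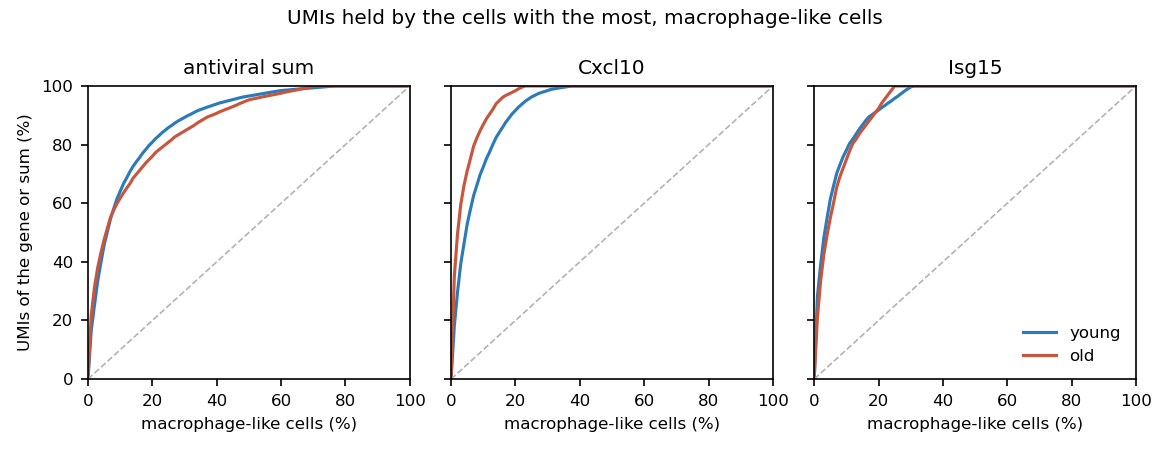
Share of the UMIs of the antiviral sum, Cxcl10 and Isg15 held by a given share of macrophage-like cells, ordered from the cell with the most UMIs, in the young (blue) and old (red) library. The dashed line marks even spread. For the antiviral sum the curves of both libraries rise steeply together, reaching 45.6% and 47.5% at 5% of cells.

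Cells with at least 4 different antiviral members after thinning to 2000 UMIs were counted as carriers, a range and not a cell type. They made up 10% of young macrophage-like cells (75 of 750, interval 7.95 to 12.4%) and 3.13% of old ones (13 of 415, 1.68 to 5.30%). These intervals cover the counting of cells within each library and not the spread between animals. Of the young carriers 31 held exactly 4 members, so many lie near the limit, and the most in 1 cell were 13. In cluster 14 carriers were 15.9% of young cells (11.3 to 21.5%) and 2.44% of old ones (0.506 to 6.96%), and in cluster 13 8.49% and 4.39%. Cells without any antiviral UMI made up 38.4% of young and 50.6% of old macrophage-like cells. Endothelial cell-like carriers were 9 of 87 young (10.3%, 4.84 to 18.7%) and 4 of 82 old cells (4.88%, 1.34 to 12.0%). Stem cell-like carriers were 26 of 975 and 5 of 279. Among somatotroph-like cells 1 of 3971 young cells was a carrier and none of 1120 old ones, where a limit of 3 cells puts the share at no more than 0.268%.

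**Figure D5:**
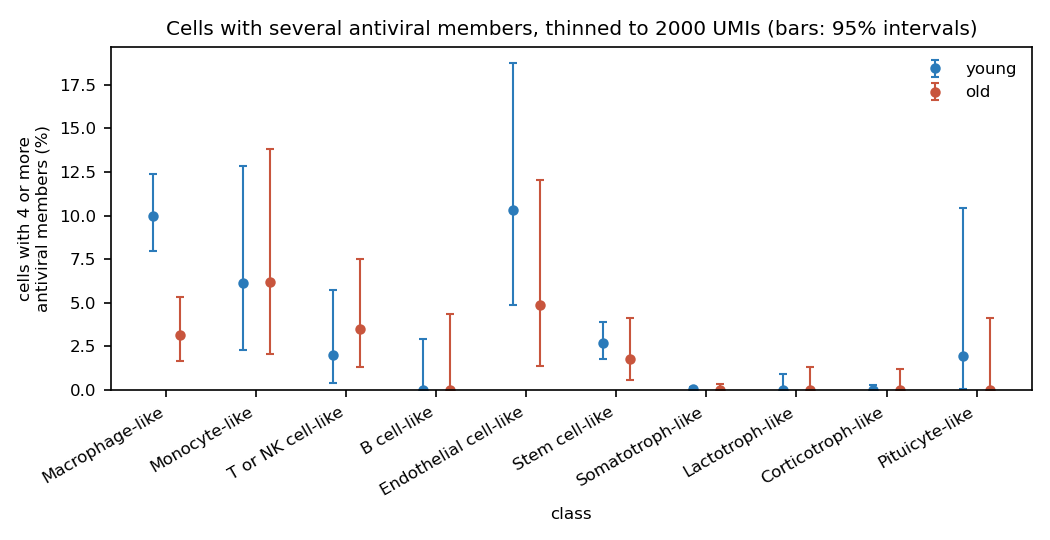
Percent of cells with 4 or more different antiviral members, each cell thinned to 2000 UMIs, by class in the young (blue) and old (red) library, with exact 95% intervals. The young macrophage-like point at 10% stands above the old one at 3.13%, and endocrine classes lie at or near 0.

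Within young macrophage-like cells several antiviral members were often found in the same cells. Of young cells with Isg15 after thinning, 19.6% also held Ifit1 (13.4 to 27.0%), against 2.31% of cells without it. Ifit3 was in 33.3% of young cells with Ifit1 and 3.81% of the others. In old macrophage-like cells the pairs with Isg15 went in the same direction, on fewer cells. Ifit3 was in 10.9% of old cells with Isg15 and 2.28% of those without it. Ifit1 was in 6.25% of old cells with Isg15 (1.73 to 15.2%) and 0.855% of those without it (0.177 to 2.48%), with overlapping intervals. Rsad2 was in 2.94% of old cells with Cxcl10 and 3.17% of those without it. Irf1, a factor that many stimuli induce, did not separate the cells in this way, since 33.5% of young cells with Irf1 and 30.1% of those without it held Cxcl10. Stem cell-like cells showed this pairing too, with Ifit1 in 16.7% of young cells with Isg15 and 1.39% of those without it. Outside the list, with both libraries pooled (75 young and 13 old carriers, so that age and carrier state are mixed), the genes with the highest carrier level over other macrophage-like cells included the small GTPase Rnd3, the receptor Cd40, the interferon-linked gene Samd9l, the apoptosis gene Bbc3 and the chemokine Ccl12. Cd40 stood at 58.6 and 7.68 CPM, and Ccl12 at 1232 and 345 CPM, with Ccl12 in 66 of 88 carriers. S100a6 and Cxcl1, also among the 10, were seen in 6 and 4 carriers.

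Within the kept cells, Ifnb1 lay mostly in a small share of the macrophage-like cells. It was detected in 42 of 750 young and 6 of 415 old macrophage-like cells, and in 4 and 1 cells outside them. The 3 young cells with the most held 93 of 259 UMIs (35.9%), and the 3 old ones 25 of 30. Most of these cells held Cxcl10 too, 38 of 42 in the young library, against 242 of 708 other macrophage-like cells. Tnf was in 34 and 297 of the same cells, and the macrophage marker C1qa in all 42. The Ifnb1 cells were deeper, with a median of 6792.5 UMIs against 4870, and the part of depth in these shares was not tested. Among the 18 other interferon genes sought, Ifng had 129 UMIs in young and 369 in old cells, nearly all in T or NK cell-like cells, where it stood at 207 and 368 CPM (old/young 1.78, 1.44 to 2.21). The other genes of this group had at most a few UMIs each. In the old library most Ifnb1 UMIs lay outside the kept cells, with 31 of 149 in cells, against 263 of 333 in the young library, and the part of this in the ratio of Ifnb1 was not tested. For Ifng, 369 of 1346 old and 129 of 186 young UMIs lay in kept cells. The part of this in the ratio of Ifng was not tested.

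Monocyte-like cells had about as many members higher as lower, and T or NK cell-like cells had several lower; whether they differ from macrophage-like cells was not tested. In monocyte-like cells (98 young and 81 old) the antiviral sum was 736 and 878 CPM, a ratio of 1.19 (1.06 to 1.34) that was reversed, at 0.941, without the top cell of each library. All cells included, there were 14 of 29 measured members higher and 15 lower. Ifit2 and Rsad2 were at least 2-fold higher, where 6.45% of genes were, and none was 2-fold lower, where 1.62% were. These counts rested on single cells, since 1 old monocyte-like cell with 13 antiviral members held 19 of 30 Ifit2, 30 of 60 Rsad2 and 76 of 190 Cxcl10 UMIs. Without that cell the old Rsad2 level was 40.1 CPM, against 29.1 CPM in young, and the old Ifit2 level 14.7 CPM, against 10.7 CPM in young. Monocyte-like cells carried the most Ifi27l2a (848 and 605 CPM, old/young 0.713, 0.629 to 0.809). In T or NK cell-like cells the antiviral sum was 779 and 522 CPM, a ratio of 0.670 (0.589 to 0.763), and without Cxcl10 of 0.849 (0.724 to 0.996). Of 25 measured members 5 were at least 2-fold lower in old (Ifit1, Oasl1, Rtp4, Cxcl10 and Irgm1), where 1.54% of genes were, and none higher, where 9.42% were. Cxcl10 in these cells stood at 312 and 126 CPM (old/young 0.404, 0.318 to 0.512). B cell-like cells had little of the response, with an antiviral sum of 97.7 and 156 CPM, below free RNA.

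Endothelial cell-like cells, which line the capillaries, showed a lower old level over nearly the whole list. The antiviral sum was 1332 and 740.0 CPM, a ratio of 0.556 (0.490 to 0.630), and 24 of 28 measured members were lower, with a median log2 ratio of -0.68 against -0.05 over all genes. At least 2-fold lower were 9 members (Ifit1, Ifit2, Oasl2, Usp18, Ifi35, Cxcl10, Gbp2, Ifi204 and Igtp), where 4.70% of genes were, and none was 2-fold higher, where 6.69% were. Gbp2, a guanylate-binding protein that interferon gamma induces, stood at 125 and 28.2 CPM (old/young 0.225, 0.124 to 0.392), and Ifi35 at 152 and 54.8 CPM (old/young 0.360, 0.231 to 0.554). The abundant members were lower as well. Ifitm3 stood at 2131 and 1346 CPM (old/young 0.631, 0.574 to 0.695), Ifitm2 at 1432 and 864 CPM (old/young 0.603, 0.536 to 0.679) and Bst2 at 613 and 314 CPM (old/young 0.513, 0.424 to 0.620). After thinning, Ifitm3 was in 94.3% of young and 82.9% of old cells, so most cells held it in both libraries. Irf1 went the other way, at 221 and 432 CPM (old/young 1.96, 1.54 to 2.51), with the stress genes Fos at 2290.4 and 6084.5 CPM and Atf3 at 503 and 1493 CPM; the part of these in the Irf1 level was not tested. A single young cell with 12 antiviral members held 30 of 45 Cxcl10 and 39 of 88 Rsad2 UMIs. With the 1% of cells with the most antiviral UMIs left out (1 cell per library), the ratio of Cxcl10 was 1.16 and that of Rsad2 1.22, both reversed, while that of the antiviral sum was 0.653.

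Stem cell-like cells held much Ifitm3, as monocyte- and endothelial cell-like cells did, and little Cxcl10. Ifitm3 had 1990.1 and 1372 CPM, 0.689 (0.663 to 0.716) as a ratio, and lay in 90.4% and 74.6% of thinned cells. Ifitm2 had 585 and 419 CPM (old/young 0.717, 0.669 to 0.768), Ifi27 437 and 349 CPM (old/young 0.799, 0.739 to 0.862) and Ifi27l2a 169 and 79.1 CPM (old/young 0.468, 0.400 to 0.546), the only member at least 2-fold lower. That is 1 of 29 measured members, where 1.72% of genes were 2-fold lower, and none was 2-fold higher, where 4.47% were. The antiviral sum was 541 and 436 CPM, a ratio of 0.805 (0.751 to 0.862). Oasl2, an OAS-like protein, reached 123 and 104 CPM here, the highest or second-highest class, while Oasl1, Cxcl10 and Rsad2 were below free RNA in both libraries. The old levels of Ifi27l2a, Ifi27 and Isg15 were also below old free RNA (104, 384 and 75.7 CPM). Their young levels were above young free RNA. Isg15 stood at 103 and 71.7 CPM (old/young 0.694, 0.585 to 0.820), Rtp4 at 71.5 and 53.0 CPM (old/young 0.742, 0.607 to 0.902) and Xaf1 at 35.3 and 20.3 CPM (old/young 0.575, 0.414 to 0.782). Ifit2 (old/young 1.54, 1.01 to 2.30) and Stat2 (old/young 1.42, 1.06 to 1.89) were higher in old. Ifit3 (old/young 1.07, 0.844 to 1.34), Ifih1 (old/young 1.01, 0.767 to 1.31) and Irf1 (old/young 1.07, 0.951 to 1.19) did not differ beyond counting error. The 5% of stem cell-like cells with the most antiviral UMIs held 33.6% and 37.0% of them, with 11.1% and 10.9% of all UMIs.

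Of the transcription factors among the members, Stat2 and Irf1 had the highest levels in somatotroph- and corticotroph-like cells. Irf7 was below free RNA in every endocrine class of both libraries. Stat2 was highest in somatotroph-like cells of both libraries (73.2 and 97.1 CPM, old/young 1.33, 1.22 to 1.45), and was the only member over 2-fold above free RNA (22.6 and 20.1 CPM) in both libraries, in somatotroph- and in corticotroph-like cells (63.0 and 70.2 CPM). Irf1 stood at 239.9 and 291 CPM in somatotroph-like and 321 and 195 CPM in corticotroph-like cells, with ratios of 1.21 (1.16 to 1.27) and 0.608 (0.553 to 0.667). Isg20, an RNA exonuclease, stood at 224 and 142 CPM in somatotroph-like cells (old/young 0.632, 0.591 to 0.674). In contrast, 22 members in somatotroph-like, 22 in lactotroph-like and 26 in corticotroph-like cells were below the level of pure free RNA in both libraries. The share of all genes below free RNA in these classes was not computed, so these counts do not set the members apart from other genes. Free RNA was estimated to make up 5.22% and 8.91% of young and old somatotroph-like UMIs, and its part in each member's ratio was not tested beyond its subtraction.

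More members were higher than lower in old somatotroph-like cells. Of 28 measured members 19 were higher and 9 lower in old, with a median log2 ratio of 0.39 against 0.03 over all genes. At least 2-fold higher were Ifit3 (2.35 and 6.27 CPM, old/young 2.67, 1.79 to 3.96), Gbp2 (4.29 and 11.5 CPM, old/young 2.68, 2.00 to 3.57) and Ifi47 (4.14 and 10.0 CPM, old/young 2.42, 1.78 to 3.27), where 5.26% of genes were, and at least 2-fold lower were Ifitm2 and Cxcl10, where 3.67% were. The 3 higher members reached at most 11.5 CPM, and Ifit3, Gbp2, Ifitm2 and Cxcl10 were below free RNA in both libraries. The antiviral sum had a ratio of 1.10 (1.04 to 1.17), which did not hold in 3 of the 4 clusters of these cells. It was 0.713 in cluster 1 (2097 young and 73 old cells), 1.13 in cluster 3, 0.968 in cluster 7 and 0.875 in cluster 22 (27 young and 462 old cells), and with the clusters weighted as in the young library it was 0.784. Different clusters held most somatotroph-like cells of the 2 libraries.

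Ifitm2 was lower in the old library in all 5 endocrine classes. It stood at 171 and 67.8 CPM in somatotroph-like (old/young 0.395, 0.360 to 0.433), 63.6 and 22.2 CPM in lactotroph-like (old/young 0.349, 0.240 to 0.496) and 117 and 52.9 CPM in corticotroph-like cells (old/young 0.452, 0.378 to 0.538). In melanotroph-like and gonadotroph-like cells, of which 1 library had under 50, it was at 173 and 93.4 CPM and at 149.8 and 61.2 CPM. Free RNA held 310.1 and 288 CPM, more than any of these classes. The lower old level was not particular to endocrine cells. Ifitm2 was also lower in old B cell-like (61.1 and 13.7 CPM), T or NK cell-like, endothelial, fibroblast-, stem cell-, pituicyte- and erythroid cell-like cells. It was higher in old macrophage-, monocyte- and neutrophil-like cells. With the estimated free RNA of barcodes to 100 UMIs subtracted, the somatotroph ratio was 0.286. In corticotroph-like cells 2 of 26 measured members were at least 2-fold higher (Oasl2 at 4.14 and 12.0 CPM, Isg20 at 45.0 and 90.0 CPM), where 4.03% of genes were, and Ifitm2 was 2-fold lower, where 2.55% were. Oasl2 and Isg20 were, like Ifitm2, below free RNA in these cells in both libraries. A single old gonadotroph-like cell of 37493 UMIs (class median 12415) held 47 of the 77 Cxcl10 UMIs of its class and no UMI of the macrophage markers, and only 2 cells held the gene.

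The wider pathway was read from lists beside the members. Of 71 other induced genes measured in macrophage-like cells, 3 were at least 2-fold lower in old (Ifit3b, Cxcl9 and Ccl5) and 3 higher (Ciita, Helz2 and Ly6a), where 1.11% and 7.48% of all genes were, with a median log2 ratio of -0.19 against 0.23 over all genes. In endothelial cell-like cells 12 of 48 were at least 2-fold lower, among them the GTPase Iigp1 at 672 and 299 CPM (old/young 0.445, 0.368 to 0.537), Ifi44 and Gbp4, and 2 were higher, where 4.70% and 6.69% of all genes were. In stem cell-like cells 2 of 53 were lower (Ifi44 and Irgm2) and 1 higher (Ccl5), where 1.72% and 4.47% of all genes were. In somatotroph-like cells none of 50 was lower and 8 were higher, where 3.67% and 5.26% of all genes were. Ccl5, a chemokine of T and NK cells, was higher in old stem cell-like (1.36 and 20.3 CPM) and somatotroph-like cells (2.46 and 16.5 CPM), while T or NK cell-like cells held 6500.2 and 7581 CPM; the part of free RNA or T cells in this was not tested. No receptor gene reached 2-fold in macrophage-, endothelial, stem or somatotroph-like cells, beside the shares of all genes given above. Of 10 signalling genes measured in macrophage-like cells only the receptor-associated kinase Tyk2 did (11.6 and 24.8 CPM, old/young 2.15, 1.40 to 3.30). It was higher in old, where 7.48% of all genes were at least 2-fold higher. None of 13 sensing genes measured in these cells reached 2-fold, where 7.48% of all genes were higher and 1.11% lower. These counts do not set the receptor, signalling or sensing genes apart from other genes.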

How the data were processed

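The authors deposited raw UMI counts of all genes for every observed barcode, per the file headers, with no cell calling and no normalisation. Alignment used Cell Ranger 6.0.2 and build GRCm39 per the submitters' processing notes; Cell Ranger 4 is named in the header of the matrices. The libraries held 154510099 and 138427393 UMIs. Barcodes with at least 2000 UMIs and 500 genes and at most 15% mitochondrial UMIs were kept, and those with the highest Scrublet scores removed at 0.8% per 1000 barcodes (679 and 766). Both libraries were clustered with scanpy 1.11.5 (3000 variable genes without interferon genes, 40 components, 15 neighbours, Leiden resolution 1) and named by markers. Endothelial and fibroblast cells were split at resolution 0.3, a step set after seeing the data. A cluster was called free RNA at a correlation of 0.95 or more, on both the log and the linear scale, with barcodes of few UMIs. Ratios have exact conditional Poisson intervals and need 20 UMIs over both libraries and 50 cells per library, shares have exact Clopper-Pearson intervals, and 2-fold counts used 0.5 added UMIs. Promoters were matched by symbol. All members are accounted for by value, by name or in a count, and not every member past 20 UMIs has its values printed for each class. The ratio code was tested on simulated data. Members, lists and markers were chosen with earlier results of these data known.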

Additional observations from a re-analysis of the deposited data

Results flagged for a closer look

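Some members had old over young ratios of at least 2-fold in opposite directions in different classes. Each difference between classes was not tested, since there is 1 library per age. Ifit2 was at 3.67 in monocyte-like cells but 0.336 in macrophage-like and 0.346 in endothelial cell-like cells, and Rsad2 was at 2.70 in monocyte-like and 0.237 in macrophage-like cells. In old monocyte-like cells 1 cell held 63.3% of the Ifit2 and 50% of the Rsad2 UMIs. Ifit3 was at 2.67 in somatotroph-like and 0.365 in macrophage-like cells, and Gbp2 at 2.68 in somatotroph-like and 0.225 in endothelial cell-like cells, with the somatotroph levels at 2.35 and 6.27 CPM for Ifit3 and 4.29 and 11.5 CPM for Gbp2. Oasl2 was at 2.90 in corticotroph-like and 0.415 in endothelial cell-like cells. The somatotroph levels of Ifit3 and Gbp2 and the corticotroph levels of Oasl2 were below free RNA in both libraries. Ifi27l2a was at 3.28 in pituicyte-like cells but 0.323 in B cell-like, 0.337 in lactotroph-like and 0.468 in stem cell-like cells, and 1 old pituicyte-like cell held 17 of its 66 UMIs. In pituicyte- and lactotroph-like cells Ifi27l2a was below free RNA in both libraries.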

How the results depend on the processing

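No paired analysis was possible because each age has 1 library, and for the same reason no library could be left out. Of 900 values recomputed under alternatives, 814 kept their direction within counting error, 78 moved and 8 turned direction; where no reason is named, the cause was not tested. The old over young ratio of the antiviral sum stayed below 1 under each of 16 alternatives in macrophage-like (0.350 to 0.453) and endothelial cell-like cells (0.493 to 0.653) and under each of 15 in stem cell-like cells (0.745 to 0.844). In macrophage-like cells it was 0.350 without the 1% of cells with the most antiviral UMIs, 0.453 without Cxcl10, 0.394 with a minimum of 3000 UMIs and 0.398 with no doublet removal. Without that 1% it was 0.653 in endothelial cell-like cells, where Rsad2 (1.22) and Cxcl10 (1.16) turned above 1; Rsad2 was also above 1 (1.09) without the 1 cell per library with the most Rsad2. As a mean over cells the antiviral level was 1891 and 729 CPM in macrophage-like and 1469.6 and 852 CPM in endothelial cell-like cells, 182 CPM in young somatotroph-like cells, and the stem cell ratio 0.745. The somatotroph ratio was 1.33 with hormone and mitochondrial UMIs in the total, 1.18 without the top 1% (with Cxcl10 turned to 1.02) and 0.784, reversed, where each cluster had the weight of its young cells. With all UMIs in the total the members' median log2 ratio there was 0.65 while that of all genes moved from 0.03 to 0.29, with 5 members 2-fold higher and 1 lower. With free RNA of barcodes to 100 UMIs subtracted, 5 somatotroph members were 2-fold higher, 1 endothelial and 1 stem cell member was higher and 2 stem cell members lower. With that of barcodes of 500 to 900 UMIs subtracted, 4 somatotroph and 2 stem cell members were 2-fold lower and 1 endothelial member higher. Bst2 in somatotroph-like cells turned to 0.207 and 0.538 under these subtractions. Carrier shares depend on depth: without thinning they were 22.8% and 12.5% in macrophage-like, 33.3% and 30.5% in endothelial, 22.8% and 17.6% in stem and 2.06% and 3.93% in somatotroph-like cells. Thinned to 1000 UMIs outside hormone and mitochondrial genes, they were 5.20% in young macrophage-like and 1.13% and 0.358% in stem cell-like cells. With 1 mismatch allowed, the ISRE core lay in 24 members (38.9% of all genes) and the GAS core in 20 (74.2%). Without the 1 cell per library with the most antiviral UMIs, the ratio of the sum turned to 0.941 in monocyte-like cells (1.19 with it) and was 0.653 in endothelial cell-like cells. The weighted clusters, the joining of endothelial and fibroblast-like cells, the sum without Cxcl10, the thinning to 1000 and the removal of 1 cell were chosen after seeing the data.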

Other observations

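Erythroid cell-like cells (53 young and 46 old), which the comparisons between ages left out for their number, had 218 and 226 CPM of Rsad2 and 345 and 401 CPM of Isg20, the highest of all classes for both genes in both libraries, though in the young library Rsad2 was nearly as high in endothelial cell-like cells (216 CPM). Their other antiviral members were mostly low, with 0 UMIs of Ifit3 in both libraries, which allows, by a limit of 3 UMIs per library, up to 11.9 and 13.8 CPM. Isg15 there had 262 and 171 CPM, of which 1 young cell held 27 of 66 UMIs and 1 old cell 28 of 37. For Rsad2 in erythroid cell-like cells, 1 young cell held 20 of 55 UMIs. Without that cell the young Rsad2 level was 142 CPM, against 121 CPM in young endothelial cell-like cells without their top cell. Fibroblast-like cells of the young library held much Isg15 (373 CPM), but 1 of 27 cells, with 14 antiviral members, held 29 of 54 UMIs.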
